A study of Mus musculus with 6 samples.

Results

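Pou2f3, Trpm5 and Ptgs1 are 3 genes of tuft cell identity and signalling. They were read by gene symbol from the authors' deposited list, which holds 690 genes, and were chosen by their lower means with IL-22 in that same comparison, so their values are given here as a description. RNA-seq was done on small-intestinal enteroids, epithelial organoids grown from crypts of C57BL/6J mice without necrotizing enterocolitis. The series asks what interleukin 22, a cytokine that signals to gut epithelium through STAT3, does in the newborn intestine in health and in that disease. The control group is 4 untreated wells from 2 mice, and the IL-22 group is 2 wells from 1 mouse, to which recombinant mouse IL-22 was added for 24 hours. Mouse number 1 occurs in both groups, and whether it is the same animal is not settled. The culture protocol, given alike for both groups, has 4 days in a differentiation medium with EGF, Noggin and R-spondin 1 before treatment. The recorded dose differs, 2 ng/ml in the labels and 100 ng at the top of the authors' deposited table, and which was used is not settled. Mouse age is 6 weeks in the labels, while the culture protocol speaks of adults of 8 weeks or neonates of 7 days. Wells of 1 mouse are technical replicates per the labels, and with 1 treated mouse no spread between treated animals can be had.

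Tuft cells are rare chemosensory cells of the gut epithelium. They are specified by the transcription factor POU2F3 and sense luminal signals through a cascade that ends at the cation channel TRPM5. They then release IL-25 and lipid mediators, and PTGS1 (cyclooxygenase-1) makes the prostaglandin precursor in these cells. In the small intestine they are known for starting type 2 immune responses to worms and protists, in which IL-25 from tuft cells drives innate lymphoid cells to make IL-13, and IL-13 acts back on the epithelium through a receptor containing IL4RA.

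The starts of Trpm5 and Ptgs1 are shown because they are the regulatory sequence next to genes that were lower together. Promoters of 2 of the 3 members were matched in the RefSeq table of GRCm38.p6, each running from 250 bases before to 50 bases after a transcript start. The capitals mark the 50 bases from the start onward, and each sequence is written 5′ to 3′ on the gene's strand. Trpm5 lies at chr7:143094593-143094892 on the minus strand and Ptgs1 at chr2:36230176-36230475 on the plus strand.
Trpm5: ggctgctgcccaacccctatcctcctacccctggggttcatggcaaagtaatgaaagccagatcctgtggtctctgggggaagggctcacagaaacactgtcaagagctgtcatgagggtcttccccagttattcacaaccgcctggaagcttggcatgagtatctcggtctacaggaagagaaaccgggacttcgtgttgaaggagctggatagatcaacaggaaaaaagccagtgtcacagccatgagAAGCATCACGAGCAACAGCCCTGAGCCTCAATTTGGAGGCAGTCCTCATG
Ptgs1: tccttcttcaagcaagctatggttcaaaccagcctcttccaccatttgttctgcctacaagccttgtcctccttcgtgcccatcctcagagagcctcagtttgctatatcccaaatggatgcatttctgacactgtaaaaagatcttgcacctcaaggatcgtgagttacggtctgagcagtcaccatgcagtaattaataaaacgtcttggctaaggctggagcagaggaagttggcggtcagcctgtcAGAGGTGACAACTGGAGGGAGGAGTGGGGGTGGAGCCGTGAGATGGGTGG
The octamer ATGCAAAT, the letters that POU factors read, was searched on both strands. It was found in neither promoter, and 1.74% of the 32851 promoters in the table hold it. TTCNNNGAA, the letters read by STAT factors and the same on both strands, was also in neither, against 8.30% of all promoters. These letters may lie outside the windows. The Trpm5 window is 53% G and C with 5 CG dinucleotides and that of Ptgs1 is 50.7% with 6, beside medians of 52.7% and 7 over all promoters, so neither is unusual in base composition.

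All 3 members stood lower with IL-22 than in any control library. The fold and p thresholds of the list favour such separation. The share of all listed genes whose groups do not overlap was not counted, so separation is not shown to be particular to the members. By group means the authors' deposited table puts Pou2f3 2.52-fold, Ptgs1 2.49-fold and Trpm5 2.02-fold below control. Of the 690 listed genes, 423 (61.3%) were lower, and since the members were picked as lower genes their count of 3 of 3 says nothing beyond the choice. In whole tissue or organoids, fewer tuft cells and less RNA per tuft cell cannot be told apart. The unit of level is RPM, a gene's reads scaled to a library of 1000000. Reads of each library were recovered from the deposited mean, SEM and mean read number, since a single set of whole reads gave all of these values for each member. The libraries are named by depth within their group. The control libraries A to D hold 36600000, 35200000, 27400000 and 22600000 reads after rounding, and the IL-22 libraries A and B 32500000 and 29900000. Which mouse or well each of them is cannot be read from the table. Intervals on levels are exact 95% Poisson intervals and cover counting error only, not the spread between wells or mice. They may understate counting error too, because PCR copies are not separate molecules.

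Pou2f3 (Entrez 18988, chromosome 9) encodes the POU-domain factor without which tuft cells do not form. Its level was 8.31 RPM in control A, 7.52 in control B, 11.0 in control C and 9.67 in control D. It was 3.63 RPM in IL-22 A and 3.61 in IL-22 B. The groups did not overlap, and the lowest control library stood 2.07-fold above the higher IL-22 library. With 118 and 108 reads, the IL-22 libraries lay within each other's counting intervals of 3.01 to 4.35 and 2.97 to 4.36 RPM. The deeper controls A and B were lower than C and D. The interval of control B, 6.64 to 8.48 RPM, did not reach that of control C, 9.81 to 12.3 RPM. The coefficient of variation of Pou2f3 over controls was 16.9%, where counting alone would give about 6.11%. In the authors' deposited table the means were 9.13 ± 0.770 RPM (SEM) for controls and 3.62 ± 0.00982 RPM for IL-22, a log2 difference of -1.33 ± 0.12 (SE from the SEMs). From the summed reads, 1090 in controls and 226 with IL-22, the fall was 2.47-fold with a 95% exact counting interval of 2.14 to 2.86.

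Trpm5 (Entrez 56843, chromosome 7) encodes the calcium-activated channel that depolarizes taste and tuft cells. Its level was 5.80 RPM in control A, 5.31 in control B, 5.95 in control C and 5.43 in control D. It was 3.42 RPM in IL-22 A and 2.14 in IL-22 B. The controls were close together and the IL-22 libraries were not, the reverse of Pou2f3. The control coefficient of variation of Trpm5 was 5.36%, under the 7.80% that counting alone gives on average. Trpm5 had 111 reads in IL-22 A and 64 in IL-22 B, and the counting intervals of 2.81 to 4.12 and 1.65 to 2.74 RPM did not meet. They differed 1.60-fold, where the median over the 639 listed genes with recovered IL-22 reads was 1.22-fold, and 95 of these genes differed by more. Without IL-22 B, Trpm5 was 1.64-fold lower than the control mean, and without IL-22 A it was 2.62-fold lower. A 2-fold threshold, which every listed gene passes, thus holds for Trpm5 in IL-22 B and in the mean but not in IL-22 A. The groups still did not overlap, with the lowest control 1.55-fold above the higher IL-22 library.

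The deposited means of Trpm5 were 5.62 ± 0.150 RPM (SEM) and 2.78 ± 0.638 RPM in the authors' deposited table, a log2 difference of -1.02 ± 0.33 (SE from the SEMs). Among the 423 lower genes, 11 had a smaller fall than Trpm5, and the smallest was 2.00-fold. Genes under 2-fold are not analysed here. An exon of Tssc4 on the other strand covers 3.44% of the Trpm5 exon bases in GENCODE M21, and without a stated strand the reads there cannot be assigned to one gene. Tssc4 was not among the listed genes.

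Ptgs1 (Entrez 19224, chromosome 2) encodes cyclooxygenase-1, which turns arachidonic acid into the precursor of prostaglandins and thromboxane. Its level was 1.83 RPM in control A, 2.38 in control B, 1.71 in control C and 1.72 in control D. It was 0.801 RPM in IL-22 A and 0.736 in IL-22 B. The IL-22 libraries agree within counting error, and control B was the highest of the group. Ptgs1 rested on the fewest reads of the 3, with 237 in all controls and 48 with IL-22. Its control coefficient of variation of 16.6% was close to the 13.6% of counting alone. The lowest control stood 2.14-fold above the higher IL-22 library, so the groups did not overlap. The deposited means were 1.91 ± 0.159 RPM (SEM) and 0.769 ± 0.0322 RPM in the authors' deposited table, a log2 difference of -1.32 ± 0.13 (SE from the SEMs). The fall in summed reads per depth was 2.53-fold with a 95% exact counting interval of 1.85 to 3.52. The gene model Gm43621 on the other strand covers 3.81% of the Ptgs1 exon bases.

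**Figure D1:**
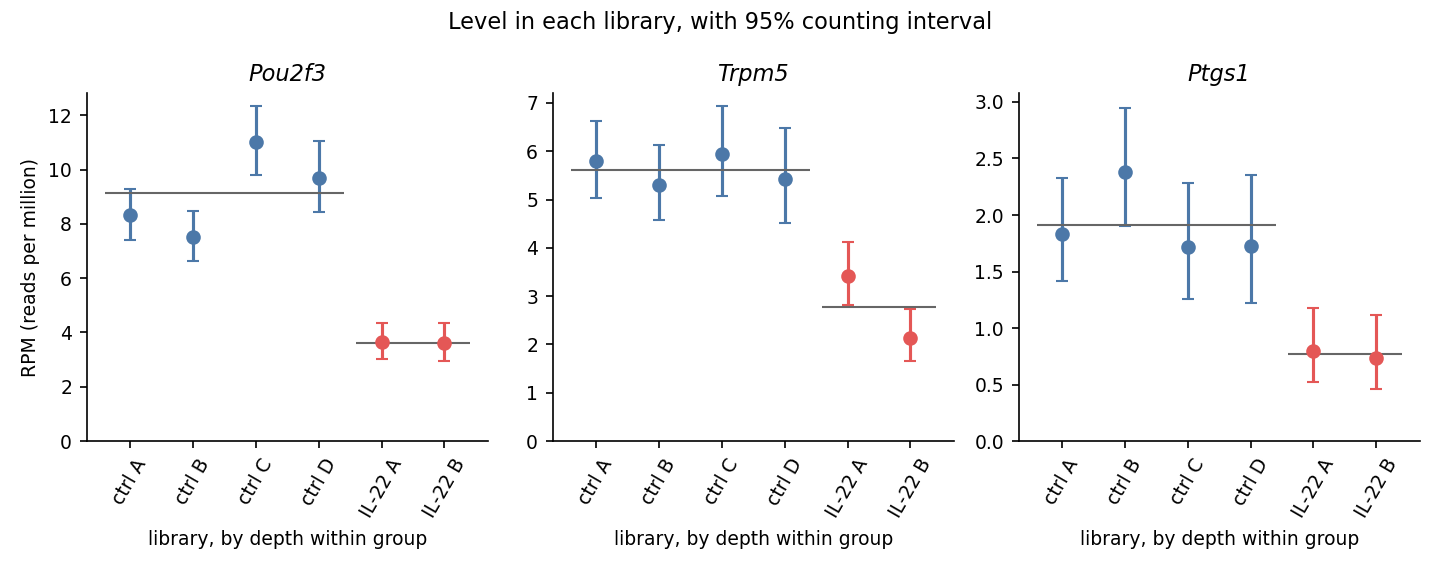
RPM of Pou2f3, Trpm5 and Ptgs1 (vertical axes, linear from 0) in 4 control libraries (blue) and 2 IL-22 libraries (red), ordered by depth within the group; bars are 95% exact Poisson counting intervals and grey lines the group means. Every IL-22 point lies below every control point, the 2 red points of Pou2f3 coincide at 3.63 and 3.61 RPM, and those of Trpm5 stand apart at 3.42 and 2.14 RPM.

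Compared per length, the order was Pou2f3, Trpm5, Ptgs1 in both groups. Per kilobase of the longest coding transcript in GENCODE M21 (2610, 4123 and 2867 bases), the control means were 3.50, 1.36 and 0.667 RPM per kilobase and the IL-22 means 1.39, 0.674 and 0.268. In every library Pou2f3 exceeded Trpm5, and Trpm5 exceeded Ptgs1 on this scale. The highest Trpm5 control, 1.44 RPM per kilobase, stood under the lowest Pou2f3 control, 2.88. Among the IL-22 libraries the order also held without overlap, from 0.829 for the higher Trpm5 library to 1.39 for the lower Pou2f3 library. Of the 31-base words in the transcripts of Pou2f3, Trpm5 and Ptgs1, 96.3%, 97.1% and 96.7% are found in no other gene.

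The members did not keep fixed proportions from library to library. The ratio of Trpm5 to Pou2f3 in RPM was 0.697 and 0.706 in controls A and B and 0.540 and 0.562 in controls C and D. It was 0.941 in IL-22 A and 0.593 in IL-22 B. IL-22 A lay above all controls in this ratio, while IL-22 B lay among them. The ratio of Ptgs1 to Pou2f3 was 0.156 to 0.317 over controls and 0.220 and 0.204 with IL-22. Here the IL-22 values fell inside the control range. The summed level of the 3 genes was 15.9, 15.2, 18.7 and 16.8 RPM in controls A to D. With IL-22 it was 7.85 RPM in library A and 6.49 RPM in library B.

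Among the lower genes of the list the members held middle and late places by size of change. The median fall of the 423 lower genes was 2.70-fold in the authors' deposited table, and 183 of them had a smaller fall than Pou2f3 and 174 a smaller fall than Ptgs1. By control level, 53.9% of the lower genes stood below Pou2f3, 42.6% below Trpm5 and 22.0% below Ptgs1. In the spread between IL-22 libraries Pou2f3 was at the narrow end, since 631 of the 639 genes compared differed by more than its 1.01-fold. That gap is much smaller than the counting intervals of Pou2f3 in IL-22 A and B, 3.01 to 4.35 and 2.97 to 4.36 RPM. It is therefore no measure of precision. Of the 639 genes, 478 differed by more than Ptgs1, at 1.09-fold.

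**Figure D2:**
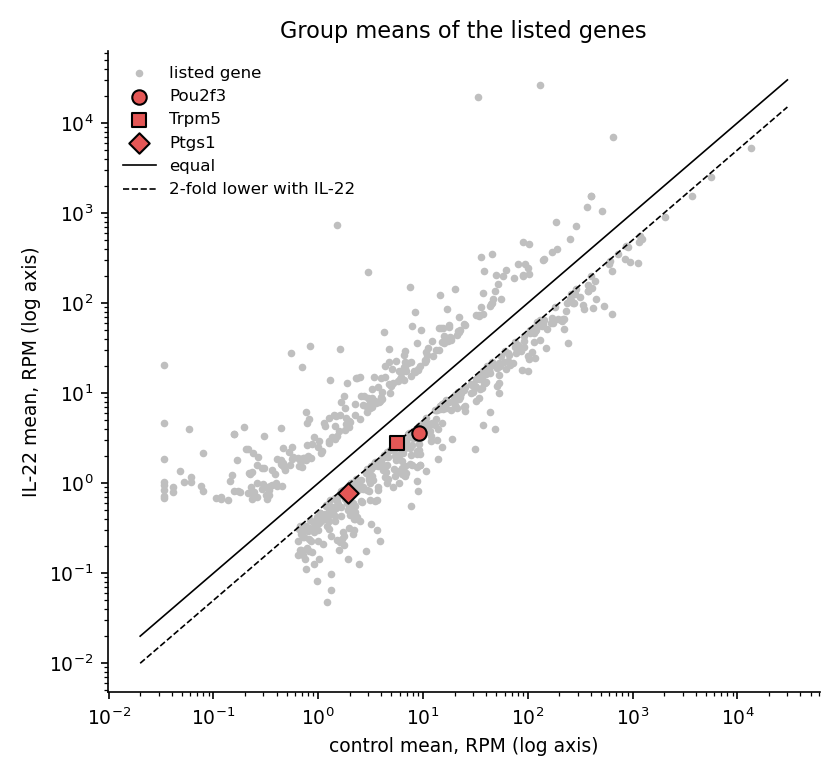
Control mean (horizontal) against IL-22 mean (vertical) in RPM on log axes for the 690 listed genes (grey) with Pou2f3, Trpm5 and Ptgs1 marked in red; the solid line is equality and the dashed line 2-fold lower with IL-22. Trpm5, at 2.02-fold, lies on the dashed line, and Pou2f3 and Ptgs1 lie just below it, at 2.52-fold and 2.49-fold.

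**Figure D3:**
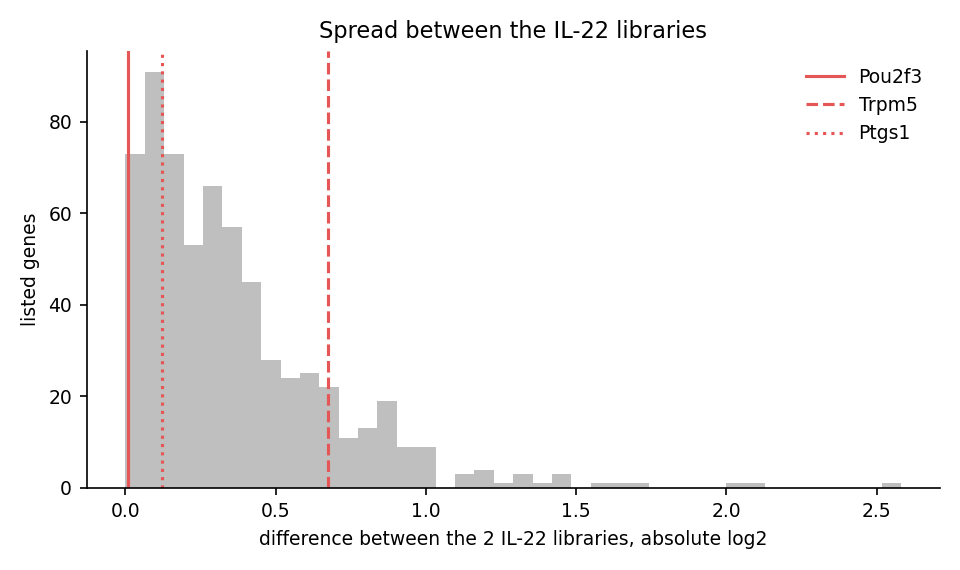
Number of listed genes (vertical) by the absolute log2 difference between IL-22 libraries A and B (horizontal) for 639 genes with recovered reads; red lines mark Pou2f3, Trpm5 and Ptgs1. Trpm5 lies in the right tail, with 95 genes beyond it, and Pou2f3 lies at the left edge.

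The wider tuft cell programme was looked at through 5 lists of 76 genes in all, of which 9 were listed, 5 lower and 4 higher. The share of lower genes among the 9 was 55.6% and their median log2 difference -1.02, beside 61.3% and -1.12 over all 690 listed genes. Pou2f3, Trpm5 and Ptgs1, picked as lower, are among the 5 lower genes, and the median is the value of Trpm5. Of the 6 other listed genes, Fyb and Trim38 were lower and Runx1, Pla2g5, Il4ra and Skap2 higher. The share and median thus rest partly on the choice of the members and are no result about tuft cells. The remaining 67 genes of the lists were not listed. Among those 67 are the structural and kinase markers Avil and Dclk1, the regulator Gfi1b, the cytokine gene Il25 and the taste G-protein gene Gnat3. A gene outside the list is not shown to be unchanged, and the label of tuft cells could not be checked against these defining markers.

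Among 11 regulators 2 were listed, Pou2f3 lower and Runx1 higher. Runx1, a runt-domain factor of many cell types, was at 15.5 to 18.7 RPM over controls and at 35.0 and 40.9 RPM with IL-22. Its libraries did not overlap between groups, and its change ran opposite to that of Pou2f3. The regulator symbols Pou2af2 and Pou2af3 are in neither the RefSeq nor the GENCODE table. Whether an older name stands for them, among the listed genes or elsewhere, cannot be told from these references. The listed gene model 1810046K07Rik had a mean of 6.30 RPM for control and 1.47 RPM for IL-22. Counted as a regulator, it would give that list 3 listed genes, 2 lower and 1 higher. The 5 lists would then have 10 listed genes, of which 6 (60%) were lower, Pou2f3, Trpm5 and Ptgs1 among them. The median log2 difference of the 10 would be -1.08. Trpm5 was the listed gene among 18 of taste and calcium signalling. Neither the phospholipase gene Plcb2 nor the acetylcholine enzyme gene Chat of that list was listed.

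Among 12 genes of eicosanoid synthesis, Ptgs1 was lower and Pla2g5 higher. Pla2g5 encodes a secreted phospholipase A2, an enzyme class that frees fatty acids such as arachidonic acid from membranes. Its level was 13.8 to 15.2 RPM over controls and 128.2 and 120.1 RPM with IL-22, 8.49-fold higher in the authors' deposited table. Pla2g5 and Ptgs1, which act before and after arachidonic acid, thus stood in opposite directions, while the other 10 genes of this list were not listed. Among them are the leukotriene genes Alox5, Alox5ap and Ltc4s, the prostaglandin D synthase gene Hpgds and the second cyclooxygenase gene Ptgs2.

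Of 8 cytokine and receptor genes Il4ra, the shared chain of IL-4 and IL-13 receptors, was listed and higher. It was at 9.67 to 11.2 RPM over controls, 27.0 RPM in IL-22 A and 19.2 RPM in IL-22 B, which is 1.83-fold above the control mean in library B. Overlapping exons of the gene model Gm44876 cover 9.51% of its exon bases. Of 27 structural and other markers, Fyb and Trim38 were lower and Skap2 higher. Fyb, an adaptor protein gene, was at 3.15 to 3.87 RPM over controls and at 1.63 and 1.61 RPM with IL-22, with other gene models covering 10.2% of its exon bases. Trim38, a tripartite-motif gene, was at 7.73 to 10.3 RPM over controls and at 2.49 and 2.14 RPM with IL-22. Skap2, an adaptor that binds FYB, was at 17.1 to 19.3 RPM over controls and at 41.2 and 39.6 RPM with IL-22. Fyb and Skap2, which encode partner proteins, stood in opposite directions.

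**Figure D4:**
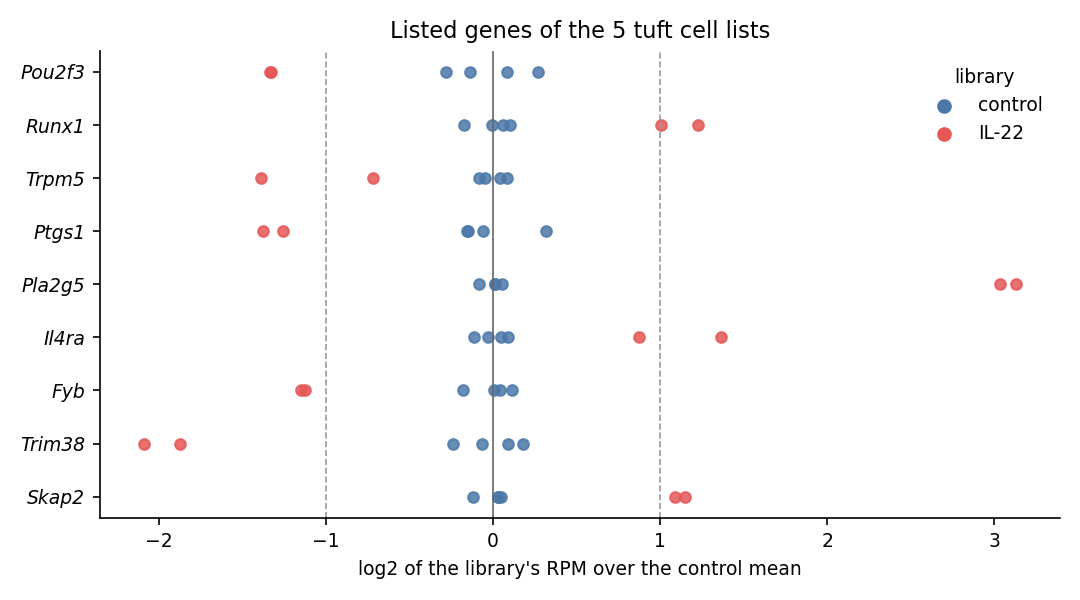
Log2 of each library's RPM over the control mean (horizontal) for the 9 listed genes of the tuft cell lists, with control libraries in blue and IL-22 libraries in red; dashed lines are 2-fold. Pou2f3, Trpm5, Ptgs1, Fyb and Trim38 have both IL-22 points left of all controls, Runx1, Pla2g5, Il4ra and Skap2 have them right, and IL-22 A of Trpm5 and IL-22 B of Il4ra lie inside the dashed lines.

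Markers of other cells were read from the same list. None of the chosen 12 leukocyte, 12 enteroendocrine, 6 megakaryocyte, mast cell and platelet, or 7 mesenchymal and endothelial genes was listed. Ptgs1 and Fyb are also made by blood cells. Outside these lists, and chosen after their values were seen, B cell genes stood in both directions in the authors' deposited table. Cd79b, a chain of the B cell receptor, was at 0.237 ± 0.0187 RPM (SEM) for controls and 0.763 ± 0.161 RPM for IL-22, and Pou2af1, the gene of a POU-factor coactivator of B cells, at 3.25 ± 0.183 and 1.19 ± 0.146 RPM. Levels of blood cell markers missing from the deposited table are not analysed here. Of 10 goblet genes, Bcas1 and Klk1 were lower and 8 were not listed, and the means of the listed genes summed to 30.6 RPM for control and 13.0 RPM for IL-22. Of 11 Paneth genes, Mmp7, Mptx2 and Pla2g2a were higher, summing to 90.8 and 606.8 RPM, and 8 were not listed. Outside these lists, and again chosen after the values were seen, Retnlb and Muc3 stood higher. Retnlb, a product of goblet cells, had 0.25 mean control reads and an IL-22 mean of 20.5 RPM. The membrane mucin gene Muc3 had means of 20.1 and 143.1 RPM, with its IL-22 libraries A and B far apart at 195.7 and 90.5 RPM. Of 11 absorptive enterocyte genes, Alpi, Apoa4, Fabp2, Lct, Treh and Mme were lower, summing to 2342 and 899.1 RPM, and 5 were not listed. Of 6 stem cell genes, Olfm4 was lower and Prom1 higher. Most genes of the goblet, Paneth and stem lists were not listed, so these counts give no level of a lineage, and their part in the members' values was not tested.

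The genes nearest to each member in control mean and IL-22 mean, by distance over both log2 values among 574 named genes, are given as a description over 2 group means. For Pou2f3 they were Plekhb1, Tmem86b and Adh7, at distances of 0.053 to 0.088. For Trpm5 they were Slc34a2, Gpr157 and Tmie, at 0.11 to 0.15. For Ptgs1 they were Gpr116, Bace2 and Srgap3, at 0.14 to 0.17. None of these is on the tuft cell lists. Adh7 encodes a retinol-oxidizing alcohol dehydrogenase, and its means in the authors' deposited table were 9.04 ± 0.497 RPM (SEM) for controls and 3.41 ± 0.0667 RPM for IL-22.

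The authors called each member at an adjusted p of 0.0110 for Pou2f3, 0.00577 for Trpm5 and 0.0109 for Ptgs1 in the authors' deposited table, adjusted over the 690 selected genes. Adjusted over all 21951 protein-coding genes of GENCODE M21 with unlisted genes at the largest possible p, 0 of the 3 passed 0.05, where 7.97% of the listed genes passed as lower. At the authors' unadjusted p under 0.05 it was 3 of 3, which the selection of the list forces, and these p-values compare wells and not animals. Being drawn from the values by which the members were chosen, they support nothing about them. An exact permutation of 4 and 2 libraries cannot give a two-sided p under 0.0667.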

How the data were processed

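Libraries of polyadenylated RNA from enteroid wells were amplified over 15 PCR cycles and read as single reads, per the labels' protocols. BWA 0.5.9 and Picard 1.58 are named in the submitters' processing notes. Sources used here do not give the genome build, annotation, counter or use of strand. The deposited table holds group means and SEMs that the authors made, in RPM by its values, a mean read number, a fold (ratio) of means and the authors' p-values with a Benjamini-Hochberg adjustment per the file headers. Recomputation as a pooled-variance comparison differed from the deposited p-values by at most 1.07e-06. Only genes with at least 2-fold change, a p of at most 0.0239 and at least 20 mean reads in the higher group are listed.

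Whole reads per library were solved from mean, SEM and read number, with a library without reads carrying the value of 1 read. A single set was found for 513 of 528 genes tried in controls (up to 4000 summed reads) and 639 of 643 with IL-22 (up to 12000), and the procedure was tested on simulated data. Errors of log2 differences come from the SEMs. Rows were matched to RefSeq GRCm38.p6 by Entrez identifier (679 of 690), and lengths, overlaps and 31-base words come from GENCODE M21. Python 3.11.15, numpy 2.4.6 and scipy 1.17.1 were used. Members and lists were chosen with earlier results of these data known. The named genes are the members, the listed genes of the tuft lists and the 3 genes nearest to each member. Of the other cell type lists, the listed genes are named with counts. No count model was run, since the table holds only selected genes. The members' p-values are the authors', and were recomputed from their means and SEMs under other settings only to show how they move: they rest on the values that chose the members and support nothing. Alternatives were added RPM, summed reads, other adjustments and variances, thresholds, leaving out each library and, chosen after seeing the data, counting 1 gene model with the tuft lists.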

Additional observations from a re-analysis of the deposited data

Results flagged for a closer look

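Of the 10 genes whose 4 control libraries were compared with each other, 1 had a library flagged by its gap relative to the range. Skap2 was at 17.1 RPM in control C and at 19.0 to 19.3 RPM in controls A, B and D. The gap took 0.871 of the whole range, against a critical value of 0.829. The counting interval of control C, 15.6 to 18.7 RPM, overlapped those of A, B and D, which began at 17.6, 17.8 and 17.2 RPM. The control coefficient of variation of Skap2 was 5.38%, where counting alone would give about 4.29%. The IL-22 libraries of Skap2, at 41.2 and 39.6 RPM, lay far above all 4. Ptgs1 came close with 0.824, from control B at 2.38 RPM. Chance alone flags about 1 in 20 such groups.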

How the results depend on the processing

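All 27 log2 differences of the members under alternatives stayed below 0, and 23 of them moved by less than 1 SD between libraries. That SD combined the spread of both groups. The sign could not have changed, since the members were chosen as lower and every IL-22 library lay below every control. Of the 27 values, 18 came from leaving out 1 library, which moves a group mean by less than 1 SD of that group whatever the values. The count of 23 is therefore no measure of stability. All the larger moves came from added RPM, and the sizes are given as a description. Leaving out each of the 6 libraries in turn gave -1.41 to -1.23 for Pou2f3, -1.39 to -0.72 for Trpm5 and -1.38 to -1.19 for Ptgs1, so Trpm5 depends most on 1 library, an IL-22 one. With 5 RPM added the values were -0.71, -0.45 and -0.26 for Pou2f3, Trpm5 and Ptgs1, and with 1 RPM added Ptgs1 was at -0.72, as adding a constant shrinks low genes most. The members' p-values rest on the values that chose the members and support nothing, so what follows shows only how they move. Adjusted over all protein-coding genes, the authors' p became 0.351 for Pou2f3, 0.183 for Trpm5 and 0.348 for Ptgs1, which are upper bounds. From the authors' means and SEMs, with scipy and Benjamini-Hochberg adjustment over the list, unequal variances gave an adjusted p of 0.0115 for Pou2f3, 0.137 for Trpm5 and 0.0103 for Ptgs1, and the log2 scale 0.00341, 0.0105 and 0.00359. Without 1 IL-22 library, and giving the remaining one the spread of the controls, adjusted p over the list was 0.0567 to 0.0582 for Pou2f3, 0.0535 to 0.0605 for Ptgs1 and 0.00758 to 0.0179 for Trpm5. The 5 lower tuft list genes include Pou2f3, Trpm5 and Ptgs1. These 5 became 0 at 4-fold, 0 when adjusted over every protein-coding gene, 2 with 1 RPM added and 0 with 5 RPM added. At the same settings the 4 higher ones became 1, 2, 4 and 1. Unequal variances left 4 lower and 2 higher, and counting 1810046K07Rik, an alternative chosen after seeing the data, gave 6 lower and 4 higher. The cause was not tested. The motif searches found no match in the shorter window either. No paired analysis was possible because the recovered libraries carry no mouse or well number, and whether the groups share a mouse is not settled. Depth limits Ptgs1 most, with 48 reads over both IL-22 libraries.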

Other observations

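The gene model 1810046K07Rik, on chromosome 9 like Pou2f3, was lower with IL-22 by more than any member. Its symbol is on none of the lists, and it was chosen after its values were seen. Whether it is 1 of the 2 regulators whose symbols no reference table holds cannot be told from the references used here. RefSeq places it between Colca2 and Arhgap20, with Pou2af1, the gene of a POU-factor coactivator of B cells, on the far side of Colca2. Pou2af1 was also lower, at 2.74 to 3.55 RPM over controls and at 1.05 and 1.34 RPM in IL-22 A and B. The level of 1810046K07Rik itself was 7.55 RPM in control A, 6.38 in control B, 6.09 in control C and 5.17 in control D. It was 1.63 RPM in IL-22 A and 1.31 in IL-22 B. The groups did not overlap, and the lowest control stood 3.16-fold above the higher IL-22 library. In the authors' deposited table the mean of 1810046K07Rik fell 4.29-fold, and 342 of the 423 lower genes had a smaller fall. Over controls its order ran from A down to D, while Pou2f3 was highest in C and D. Of the 31-base words of 1810046K07Rik, 100% are found in no other gene.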
